A study of Mus musculus with 2 samples.

Results

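Ephrins and their Eph receptors, and semaphorins with their plexin and neuropilin receptors, were compared in MEFs, mouse embryonic fibroblasts grown out of connective tissue, using 2 arrays. One array held RNA of Fut8+/+ cells and the other of Fut8-/- cells, and both kinds were grown in serum-containing Dulbecco's medium with no treatment named. Fut8 encodes the enzyme that puts the core fucose on N-glycans, and the cells were disrupted in both copies of the gene; the age of the embryos, the construct behind the disruption and the number of embryos per culture are not stated in the sources used here. There was 1 Affymetrix array per genotype, although the design text gives n = 3 for each, and the sources used here do not say if an array carries RNA of a single culture or a pool. None of the values below therefore has a replicate check, and what differed between the genotypes and what differed between any 2 cultures cannot be told apart.

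Genes were taken by name, and the gene families were chosen with earlier results of these data known. Every probe set whose platform annotation gave a single symbol of the ephrin-A, ephrin-B, EphA, EphB, plexin A to D, neuropilin or semaphorin class 3 to 7 series was taken, which gave 53 of the 18193 genes on the array, read by 124 probe sets. They were 8 ephrins, 13 Eph receptors, 20 semaphorins, 9 plexins, the 2 neuropilins, and Nrp. Nrp is a separate gene of chromosome 12 that matches the search by its symbol and belongs to neither family; it was within 2-fold, with signals of 69.4 in Fut8+/+ and 54.6 in Fut8-/-. Ephb2 was not analysed here. Signals are the deposited linear intensities at the brightest probe set of a gene. Ratios are log2 of Fut8-/- over Fut8+/+ after centring the arrays on each other, which multiplied Fut8-/- signals by 1.16, and after raising scaled signals under 12.3 to that floor. With 1 array at the floor the fold is given as "at least". A gene counted as measured where its brighter array reached 39.1 after scaling, and as higher or lower from 2-fold on, which is 1 on the log2 scale. Where different probe sets read the same gene, their ratios had an SD of 0.49 (17 of the 53 genes) against 0.40 over all genes (5389 genes). This is a technical spread within the pair of arrays.

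Both systems steer cells and growing axons by contact or over short distances. Ephrins are membrane-bound ligands of the Eph receptor tyrosine kinases, the A class being tethered by a lipid anchor and the B class spanning the membrane, and signals run into both the ligand-bearing and the receptor-bearing cell. Class 3 semaphorins are secreted and mostly bind a neuropilin that pairs with an A plexin or plexin-D1. Classes 4, 5 and 6 span the membrane, class 7 carries a lipid anchor, and these bind plexins directly; plexins then act on adhesion and the actin skeleton. In mesenchyme the 2 systems are known for sorting cells into compartments and for guiding vessels, nerves and neural crest. Most of these ligands and receptors are glycoproteins of the cell surface, but only RNA was measured here.

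The 2 arrays were checked first. The brightest Fut8 probe set had signals of 190.9 in Fut8+/+ and 11.7 in Fut8-/- (14.1-fold); whether it reads the disrupted part is not stated in the sources used here. Sex-linked transcripts differed too: Xist had signals of 656 and 15.2, whereas the Y-linked Eif2s3y had 7.06 and 2845. Genotype and the sex of the embryos therefore cannot be told apart. The collagen gene Col1a2 (11280 and 9433) and vimentin, Vim (11471 and 11110), were bright on both arrays. Of 12 fibroblast markers 9 were measured, and 5 of them passed 2-fold: Prrx1 (221 and 7.26, at least 17.9-fold), Fn1 (3.25-fold), Col1a1 (2.59-fold) and Pdgfra (2.26-fold) were lower, and Pdgfrb (2.13-fold) was higher. Thy1, Dcn and Lum stayed under the measured limit on both arrays. The summed signal of the list, most of it from Col1a2 and Vim, was 32543 in Fut8+/+ and 24433 in Fut8-/-. The summed signal of 8 endothelial markers was 301 and 166, with only Egfl7 measured and Pecam1, Cdh5, Kdr, Tek, Tie1, Emcn and Plvap under the limit on both arrays. It was 817 and 189 for 7 neural and glial markers on the array (4 measured, of which Sox2, Nes and Tubb3 were lower and Map2 was between; Sox10, Snap25 and Gfap under the limit), 82.6 and 278 for 6 epithelial markers (3 measured, Krt19 and Dsp higher, Epcam lower) and 107 and 67.9 for 5 leukocyte markers (1 measured, Csf1r). Krt19 and Dsp were measured through the Fut8-/- array alone, and Epcam, Sox2, Tubb3, Pdgfra and Prrx1 through the Fut8+/+ array alone. That by itself favours a difference, so the marker counts are a description. Of all measured genes 6.08% were higher and 8.46% lower. The part of these markers in the differences below was not tested. In such bulk samples fewer cells of a type and less RNA per cell cannot be told apart.

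Of the 53 genes, 31 were measured. Semaphorins Sema3c, Sema3d, Sema3g, Sema4a and Sema4d and the plexin gene Plxnb3 were at least 2-fold higher in Fut8-/-, whereas the ephrin gene Efnb2, the neuropilin gene Nrp1, the plexin gene Plxnd1 and the semaphorin gene Sema4b were at least 2-fold lower. The 6 higher genes were 19.4% of those measured, beside 6.08% of all 10164 measured genes, and the 4 lower ones were 12.9%, beside 8.46%. The remaining 21 lay within 2-fold. Sema3d, Sema3g, Sema4a and Plxnb3 reached the measured limit on the Fut8-/- array alone, which by itself favours a difference, so these counts over measured genes are a description. Of the 22 genes not measured, 9 were at the floor on both arrays, and Epha7, Plxna4 and Sema6d would have passed 2-fold, all higher, without the limit. The median log2 ratio of the measured members was -0.13 (0.00 over all measured genes) and the median of its absolute value was 0.52 (0.37 over all). Of the members 14 had a ratio above 0 and 17 below it. The larger median size is also a description. It includes Sema3d, Sema3g, Sema4a and Plxnb3, and Plxna2, which lay within 2-fold and was also measured through the Fut8-/- array alone. Plxnb1, also within 2-fold, was measured through the Fut8+/+ array alone. Further, 16 of the 31 members lay in the dim band described next, against 2755 of all 10164 genes. Without centring, the members' median was -0.36 (-0.23 over all). Of the 29 members then measured 4 were higher and 4 lower, beside 4.08% and 11.8% of all genes. Over all genes the share of higher among those past 2-fold fell from 41.8% to 25.7%.

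Most of the higher members were dim on both arrays, and the lower ones were not dim on the Fut8+/+ array. In the dim band, where the brighter array lay between 39.1 and 155, 5 of 16 members were higher and 0 lower, beside 10.4% and 15.0% of all genes in that band. From 155 upward 1 of 15 members, Sema3c, was higher and 4 were lower, beside 4.48% and 6.05%. Efnb2, Plxnd1 and Sema4b reached 155 on the Fut8+/+ array alone, and Sema3c on the Fut8-/- array alone. Sorting by the brighter array by itself favours such differences, so the counts in each band are a description. The 4 lower genes were thus read well above the floor on the Fut8+/+ array, and all higher genes but Sema3c stayed under 155 on both arrays.

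**Figure D1:**
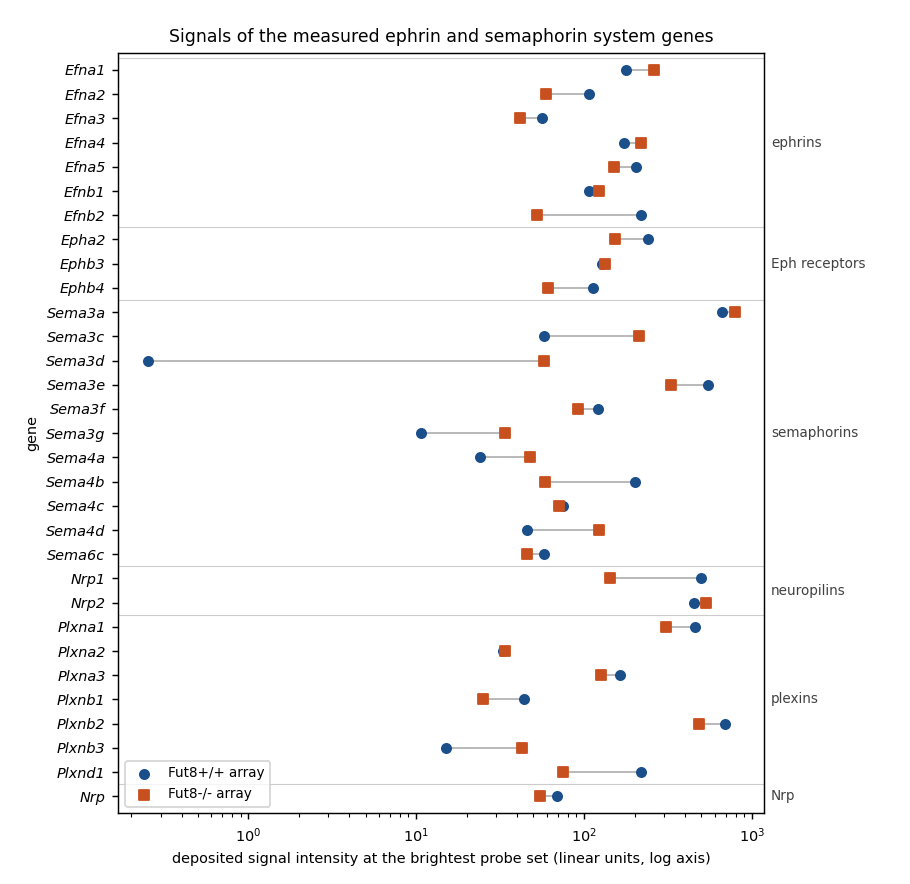
Deposited signal of the 31 measured genes at the brightest probe set (x axis, linear intensity units on a log axis; genes by family on the y axis), with circles for the Fut8+/+ array, squares for the Fut8-/- array and a line joining them. Nrp1, Plxnd1, Efnb2 and Sema4b had circles far to the right of their squares, and Sema3c, Sema3d and Sema4d the reverse; signals are before scaling, and the signal of 0.251 for Sema3d in Fut8+/+ is below the floor.

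**Figure D2:**
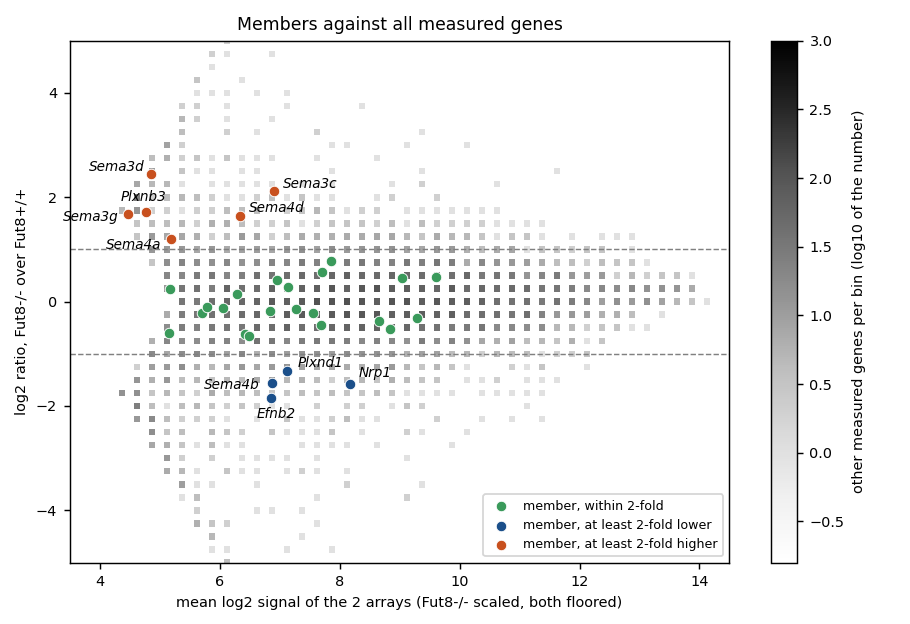
Log2 ratio of Fut8-/- over Fut8+/+ (y axis) against mean log2 signal after scaling and flooring (x axis) for the members (coloured points) over all other measured genes (grey bins, darker where more genes lie). Dashed lines mark 2-fold; Sema3d, Sema3g, Plxnb3 and Sema4a sit at the dim, left end of the plot, while the 4 lower members sit further right.

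Among the ligands of the Eph system, 7 of 8 ephrins were measured, and 1 passed 2-fold, as a lower gene (8.46% of all genes were lower). Efnb2, which encodes ephrin-B2, the B-class ligand known from arterial vessels and from segment boundaries, gave 219 in Fut8+/+ and 52.3 in Fut8-/- (3.60-fold, log2 ratio -1.85). Its second probe set gave 71.0 and 30.9 (-0.98), just under 2-fold. The third had 16.9 in Fut8+/+ and was at the floor in Fut8-/-, and the fourth was at the floor on both arrays. All 3 that gave a ratio were lower in Fut8-/-, with sizes that differed more than the usual spread between probe sets. The other measured B-class ligand, the X-linked Efnb1, had 107 and 123 (0.42) and all 3 of its probe sets were within 2-fold.

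All 5 ephrin-A genes were measured and lay within 2-fold. Efna1, the ligand best known for binding EphA2, was the highest of them, with signals of 177 and 261 (0.78). Its other probe set gave 95.8 and 208, a log2 ratio of 1.34 and so past 2-fold, and the mean of both was 1.06 (SD 0.40). Efna4 had 172 and 219.5 (0.57) at its only probe set, and Efna5 had 203.9 and 150.9 (-0.22). The other members, Efna2 (106.7 and 59.6, -0.62) and Efna3 (56.0 and 41.4, -0.22), each had a dimmer probe set of the opposite sign, at 0.13 and 0.87. The A-class ligands therefore ran in both directions, 2 above 0 and 3 below.

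Only 3 of 13 Eph receptors were measured, and none passed 2-fold; the background over all genes is the 6.08% and 8.46% above. Epha2, the receptor of ephrin-A ligands found widely outside the nervous system, had signals of 242 and 153 (-0.44). Ephb4, the usual partner of ephrin-B2 in vessels, had 112.7 and 61.0 (-0.67), and Ephb3 had 128 and 133 (0.28). Ephrin-B2 and its partner Ephb4 thus both had a lower signal in Fut8-/-, 3.60-fold for the ligand and 1.59-fold for the receptor, of which only the ligand passed the limit. Ephb3, the other measured EphB receptor gene, lay on the other side of 0, at 0.28. The receptor genes Epha3, Epha5, Epha6, Epha8, Epha10 and Ephb6 were near or under the floor, as was Ephb1. Epha1 and Epha4 were somewhat above it in Fut8+/+ (24.0 and 20.2). Epha7 had 12.4 and 25.0, under the measured limit, though 2 of its other 3 probe sets were also brighter in Fut8-/-.

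Of the secreted class 3 semaphorins 6 of 7 were measured, 3 of them higher and 0 lower, beside 6.08% and 8.46% of all genes. Sema3d and Sema3g were measured through the Fut8-/- array alone and lay in the dim band, where 10.4% of all genes were higher. Sema3c, a neuropilin ligand needed for the outflow vessels of the heart, had 57.5 in Fut8+/+ and 213.5 in Fut8-/- (4.32-fold, log2 ratio 2.11). Its second probe set gave 13.6 and 38.8 (1.73), so that both read a higher signal, with an SD of 0.27 between them. Sema3d had 0.251 in Fut8+/+ and 57.6 in Fut8-/-, at least 5.43-fold, with the Fut8+/+ array at the floor. Its second probe set was at the floor on both arrays, so the difference rests on 1 probe set. Sema3g, a ligand of neuropilin-2, had 10.8 and 33.9 at its only probe set, at least 3.19-fold; once scaled, the latter was 39.4, just inside the measured limit.

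The remaining measured class 3 genes lay within 2-fold. Sema3a, the first-described collapsing factor for growth cones and a neuropilin-1 ligand, had 663 and 794 (0.48), and its 3 probe sets agreed closely, with log2 ratios from 0.44 to 0.48. Sema3e, which binds plexin-D1 without a neuropilin, had 547 and 329 (-0.52), and its 4 probe sets ran from -0.71 to -0.36. Sema3f, the neuropilin-2 ligand, had 121 and 92.4 (-0.17); a dimmer probe set gave 1.41, so the gene's probe sets disagreed. Sema3a, Sema3c, Sema3d and Sema3e all lie on chromosome 5, whose 664 measured genes had a median of -0.06. Differences of both signs were thus found among them.

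Of 6 class 4 genes, 4 were measured, 2 of them higher and 1 lower, with 6.08% and 8.46% over all genes. Both higher genes, Sema4a and Sema4d, lay in the dim band, where 10.4% of all genes were higher. Sema4a was measured through the Fut8-/- array alone. Sema4d, which encodes CD100, the ligand of plexin-B1, had 45.9 and 124 (1.65, 3.14-fold) at its brightest probe set, and both others were at the floor on both arrays. It lies on chromosome 13, where the measured genes had a median of 0.56, and the 20 measured genes nearest to it, 10 on each side, had a median of 0.64. Relative to its chromosome the Sema4d ratio was 1.09. Sema4a had 24.1 and 47.8 (1.21), and 15.5 and 17.6 (0.40) at the second probe set; the 20 measured genes around it had a median of 0.79, and the ratio relative to chromosome 3 was 0.97, under 2-fold. Sema4b went the other way, with 202 and 58.7 (-1.56, 2.96-fold) and its second probe set at the floor on both arrays. Its chromosome, 7, had a median of -0.32, relative to which Sema4b was at -1.24. Sema4c was nearly level, at 74.6 and 71.1 (0.15). The part of these chromosome-wide shifts in the single genes was not tested.

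Among classes 5, 6 and 7 only Sema6c was measured, with 57.5 and 45.9 (-0.11); its other probe sets gave 0.45 and, with the Fut8+/+ array at the floor, 1.68. Sema5a was at the floor on both arrays. Sema6a, a ligand of A plexins, had 33.8 and 15.0 (-0.96), and Sema7a, the lipid-anchored ligand of plexin-C1 and integrins, had 32.7 and 14.7 (-0.94). Both stayed under the measured limit, as did Sema3b, Sema4f, Sema4g, Sema5b, Sema6b and Sema6d.

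The 2 neuropilins parted. Nrp1, the co-receptor shared by class 3 semaphorins and vascular growth factors, had 499 in Fut8+/+ and 143 in Fut8-/- (-1.58, 2.995-fold). Its next 2 probe sets gave 212 and 73.9 (-1.30), and 159 and 49.5 (-1.46). The fourth, which was dim on both arrays (29.4 and 25.8), gave 0.03. Over all 4 the mean was -1.08 with an SD of 0.75, and the 3 bright probe sets lay between -1.58 and -1.30. Nrp2 had 451 and 531 (0.45), and its next 2 probe sets gave 0.51 and 0.35, so that no probe set of Nrp2 had a lower signal in Fut8-/- after centring. The bright probe sets of Nrp1 were thus all lower in Fut8-/- and those of Nrp2 all slightly higher; without centring Nrp2 was at 0.23. The 12 measured genes nearest to Nrp1, which lies near the end of chromosome 8, had a median of 0.12.

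Of 9 plexin genes 7 were measured, 1 lower and 1 higher, where 8.46% and 6.08% of all genes were. Plxnd1, the receptor of Sema3e in vessels and nerves, had 219.9 and 75.1 (-1.33, 2.51-fold) at its only probe set; the 20 measured genes around it had a median of -0.49. The bright plexins lay within 2-fold, with Plxnb2 at 696 and 483 (-0.31) and Plxna1 at 458 and 306 (-0.36). So did Plxna3 (163 and 127, -0.15), Plxna2 (33.1 and 33.7, 0.25) and the Sema4d receptor gene Plxnb1 (43.9 and 24.9, -0.60). The 4 probe sets of Plxna2 did not agree, the third having 33.7 in Fut8+/+ and 3.85 in Fut8-/-. Plxnb3, an X-linked gene whose protein binds Sema5a, had 15.0 and 42.6 (1.73, 3.31-fold) at 1 probe set, the other being at the floor on both arrays. Both Plxnb3 and Plxna2 lay in the dim band and were measured through the Fut8-/- array alone. Plxnb1 lay in that band too and was measured through the Fut8+/+ array alone. The median of the 324 measured genes of chromosome X was 0.02. Plxnc1, with 6 probe sets all at the floor on both arrays, and Plxna4 were not measured.

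**Figure D3:**
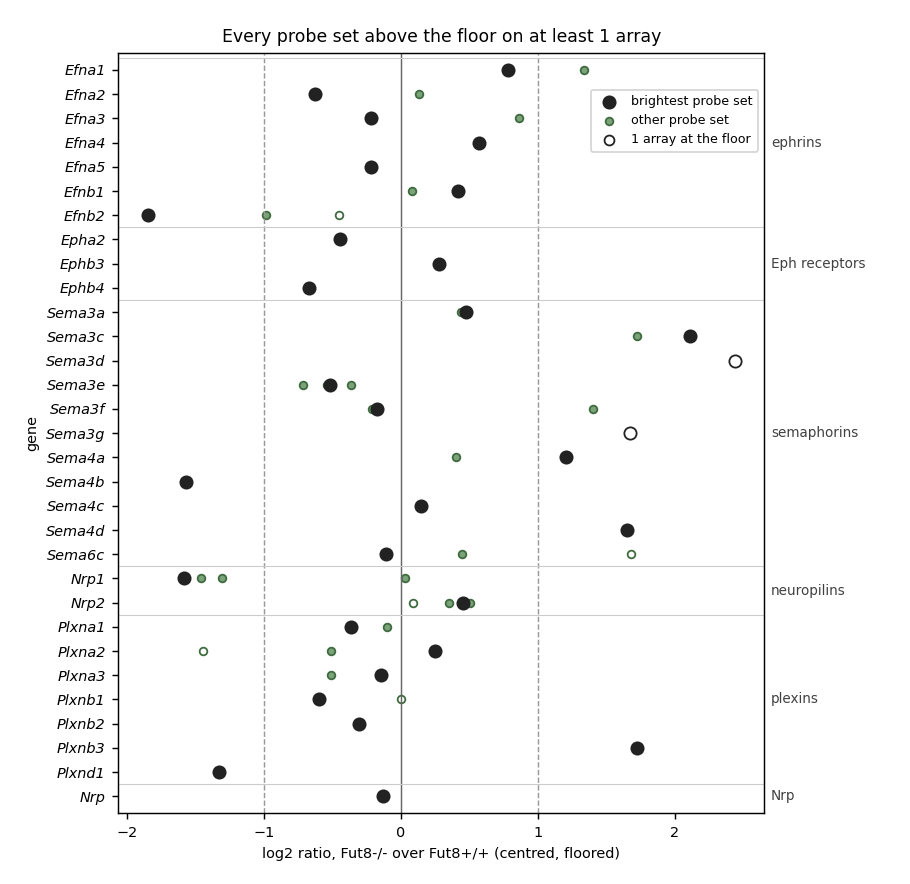
Log2 ratio of Fut8-/- over Fut8+/+ (x axis) at every probe set above the floor on at least 1 array, for the 31 measured genes by family (y axis); large points are the brightest probe set, small points the others, and open points have 1 array at the floor. Dashed lines mark 2-fold; the 3 bright Nrp1 probe sets lie together between -1.58 and -1.30, and the Sema3c probe sets lie at 2.11 and 1.73.

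Some known partners were set side by side, with no rule fixed for the choice of pairs, and their values ran as follows. For Sema3e and Plxnd1 both signals were lower in Fut8-/-, at -0.52 and -1.33. For Sema3a, its co-receptor gene Nrp1 and its signalling partner Plxna1 the log2 ratios were 0.48, -1.58 and -0.36. The other measured A plexins, Plxna2 and Plxna3, were at 0.25 and -0.15. For Sema3c, which can use either neuropilin, the ligand was at 2.11 and the receptors were at -1.58 (Nrp1), 0.45 (Nrp2) and -1.33 (Plxnd1). The Nrp2 ligands Sema3g and Sema3f were at 1.67 or more and at -0.17. For Efna1 and Epha2 the log2 ratios were 0.78 and -0.44. For Sema4d and Plxnb1 they were 1.65 and -0.60. Plxnb1 was measured through the Fut8+/+ array alone, which by itself favours a lower ratio. With the floor at the 60th percentile Plxnb1 was at -0.17. Over all ligands 5 of 18 measured genes were higher and 2 lower (median 0.28), and over all receptors 1 of 12 was higher and 2 lower (median -0.34), beside the background of 6.08% and 8.46%. In the ephrin system 0 of 10 measured genes were higher and 1 lower, and in the semaphorin system 6 of 20 were higher and 3 lower. The higher ligands Sema3d, Sema3g and Sema4a and the higher receptor Plxnb3 were measured through the Fut8-/- array alone, which by itself favours a difference. All higher genes but Sema3c lay in the dim band, where 10.4% of all genes were higher. These counts and medians are therefore a description, and whether ligands and receptors differ was not tested.

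The sequences just before the start sites of 5 of these genes are shown because they are the 3 lower genes with a single listed start and the 2 semaphorins with the largest ratios; they were picked after the values were seen. Each is the 100 bases before the RefSeq start in assembly GRCm38.p6, 5′ to 3′ on the gene's strand, and capitals mark 3 motifs searched on both strands: GGGCGG, the GC box; CCAAT, the box of that name; and TATAAA, the TATA box.
Efnb2, chr8:8661243-8661342, minus strand: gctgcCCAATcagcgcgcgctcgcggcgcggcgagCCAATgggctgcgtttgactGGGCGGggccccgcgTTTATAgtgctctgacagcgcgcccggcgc
Nrp1, chr8:128358973-128359072, plus strand: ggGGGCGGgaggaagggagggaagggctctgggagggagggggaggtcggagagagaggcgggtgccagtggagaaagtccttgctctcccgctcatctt
Plxnd1, chr6:115995006-115995105, minus strand: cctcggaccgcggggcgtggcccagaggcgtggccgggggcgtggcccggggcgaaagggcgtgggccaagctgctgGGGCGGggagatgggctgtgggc
Sema3c, chr5:17574716-17574815, plus strand: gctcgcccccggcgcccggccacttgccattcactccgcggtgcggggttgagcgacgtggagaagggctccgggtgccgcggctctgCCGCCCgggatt
Sema3d, chr5:12383066-12383165, plus strand: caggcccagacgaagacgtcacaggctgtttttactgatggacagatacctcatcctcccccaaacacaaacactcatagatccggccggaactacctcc

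A GC box was found in 4 of these 5 windows, all but that of Sema3d. Efnb2 also held 2 CCAAT boxes and a TATA box, the latter on the strand opposite the gene. The GC box of Sema3c was on the opposite strand too. Of all 32851 such windows 24.7% held a GC box, 18.9% a CCAAT box and 5.56% a TATA box. Among the 60 windows of the 46 members with a listed start, 66.7% held a GC box. The windows had 16 CG pairs in Efnb2, 14 in Sema3c, 11 in Plxnd1 and 4 each in Nrp1 and Sema3d, beside medians of 7 for the members and 3 for all windows. A match is a run of letters and no sign of binding.

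Genes that carry the signal inward were described from lists of known partners. Of 24 measured Eph signalling partners 3 were lower and 0 higher (median -0.19), beside 8.46% and 6.08% of all genes. The kinase gene Fyn, which acts below both ephrins and plexins, had 259 and 54.9 (-2.02, 4.05-fold), and its probe sets had the same sign. Sipa1l1, a Rap GTPase regulator, was at -1.17 (274 and 105); its 3 probe sets differed in sign, and relative to its chromosome, 12, it was at -0.79 and within 2-fold. The polarity gene Pard6b was at -1.06. The next in size were the adaptor Nck2 (160 and 275, a ratio just short of 2-fold), the kinase subunit gene Pik3r1 (0.88) and the Rac activator gene Tiam1 (-0.56).

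Of 28 measured partners of plexins and neuropilins, 2 were lower and 1 higher (median -0.03); these shares, 7.14% and 3.57%, lay under the 8.46% and 6.08% of all genes. Dpysl3, of the collapsin response mediator family that relays semaphorin signals to the cytoskeleton, had 487 and 40.9 (-3.36, 10.2-fold), and its probe sets had the same sign. Rnd1, whose product binds plexins, had 521 and 154 (-1.54). L1cam, the X-linked adhesion gene whose product joins neuropilin-1 in the Sema3a receptor, was higher, at 16.7 and 53.5 (1.90). It was measured through the Fut8-/- array alone, and only 1 probe set of it was above the floor on both arrays. Sh3bp1 (0.87), Limk2 (-0.69) and Itgb1 (-0.63) followed within 2-fold. The related gene Dpysl2 was level (2681 and 2364, 0.04).

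The other guidance systems were read from few genes, 9 of 27 being measured. Slit2, a secreted repellent, had 149.8 and 350.1 (1.44), and its receptor gene Robo1 had 12.7 and 137 (3.65, 12.6-fold). In each case the probe sets had the same sign. On the Fut8+/+ array Robo1 lay just above the floor. Robo1 was measured through the Fut8-/- array alone, which by itself favours a difference. The netrin receptor gene Unc5b was lower (166 and 59.8, -1.26), and Rgmb (-0.98), Srgap3 (-0.92) and Neo1 (-0.44) lay within 2-fold. The probe sets of Rgmb differed in sign, as did those of Neo1. The 2 higher and 1 lower of 9 stand beside 6.08% and 8.46% of all genes. With Robo1 among the higher genes, these counts are a description. The netrin gene Ntn1 was level (378 and 320, -0.02). Without centring Rgmb and Srgap3 also passed 2-fold, so that 3 of 9 were lower, beside 11.8% of all genes at that setting.

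**Figure D4:**
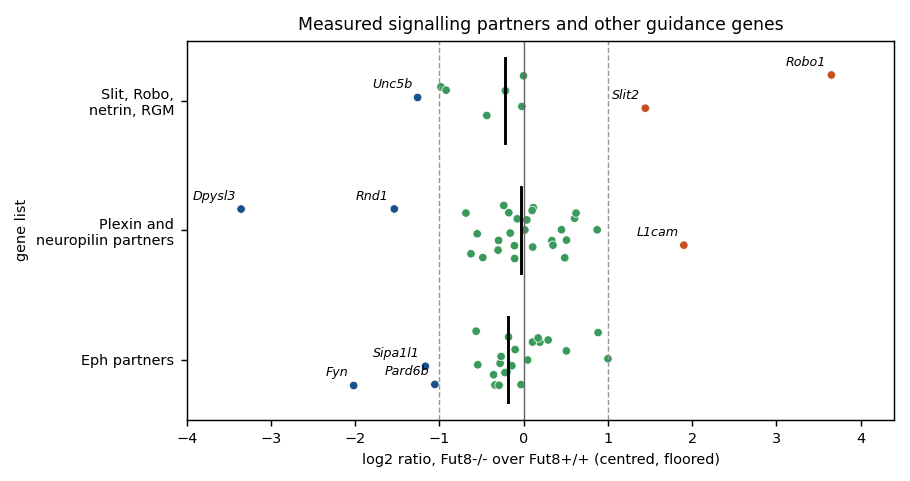
Log2 ratio of Fut8-/- over Fut8+/+ (x axis) for the measured genes of 3 lists (y axis; points are spread vertically only to part them), with a black bar at each list's median and dashed lines at 2-fold. Most points lie within 2-fold, and Dpysl3 at -3.36 and Robo1 at 3.65 lie farthest out. Robo1 was just above the floor on the Fut8+/+ array and was measured through the Fut8-/- array alone.

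**Figure D5:**
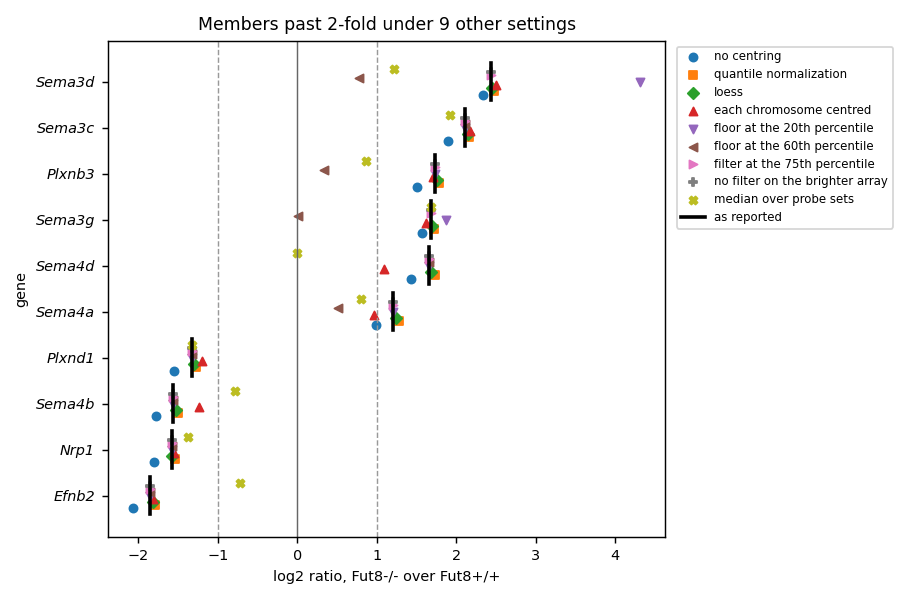
Log2 ratio of Fut8-/- over Fut8+/+ (x axis) for the 10 genes past 2-fold (y axis) as reported (black bar) and under 9 other settings (symbols). Sema3c, Nrp1 and Plxnd1 stay past the dashed 2-fold lines at every setting, although that is not so of the other 7. The other floors and filters leave the ratios of Sema3c, Nrp1 and Plxnd1 unchanged.

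Processing moved some of these genes across the limit. Sema3c, Nrp1 and Plxnd1 kept a ratio past 2-fold under all 9 other settings, with ranges of 1.89 to 2.17, -1.80 to -1.38 and -1.55 to -1.20. Several of these settings could not move them. With both other floors and both other filters the ratios stayed at 2.11, -1.58 and -1.33. The median over probe sets could not move Plxnd1 either, which has 1 probe set. With the median over all probe sets in place of the brightest one, Efnb2 was at -0.72 and Sema4b at -0.78, and Efna1 passed 2-fold at 1.06. With the floor at the 60th percentile, Sema3d was at 0.78, Plxnb3 at 0.34, Sema3g at 0.01 and Sema4a at 0.51, all within 2-fold. No gene past 2-fold changed direction; Sema4d came to 0.00 with the median over probe sets.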

How the data were processed

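RNA of Fut8+/+ and Fut8-/- cells was measured on 1 Affymetrix mouse array each; pooling of cultures is not stated in the sources used here. The authors deposited 1 linear signal intensity per probe set and array, made with GCOS per the submitters' processing notes; its version, signal algorithm and scaling are not stated in the sources used here. The 45101 probe sets had median signals of 20.5 and 16.9. Of these, 34945 with a single symbol in the platform annotation were used; the symbols of all 53 members matched the GRCm38.p6 gene table, which also gave chromosomes and neighbours.

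The log2 ratio was centred by the median (-0.22) of probe sets that exceeded each array's 40th percentile, scaled signals were floored at the pooled 40th percentile, and genes were measured from the 60th. The probe set of highest mean log2 signal stood for a gene. With 1 array each there is no test of genotype and no p-value; this number sets the limit on precision. Every measured member is named, and of each list up to 6 genes of largest ratio; marker genes named, Dpysl2, Ntn1 and the sex-linked genes were chosen otherwise, after values were seen, as were the neighbour medians and signal bands. Members and lists were chosen with earlier results of these data known. The steps were tested on simulated data, with changes set only in genes whose mean signal was above the measured limit. The noise there was smaller than the spread between probe sets. Changes in genes with 1 array at the floor were not part of that test. Python 3.11.15, numpy 2.4.6, pandas 2.3.3 and statsmodels 0.14.6 were used.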

Additional observations from a re-analysis of the deposited data

How the results depend on the processing

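No paired analysis was possible because each genotype has 1 array. Across the 9 alternatives, 261 of 279 single-gene values kept their call, 17 lost it and 1 gained it. Changing the filter leaves every ratio as it is, and changing the floor moves only ratios with a signal under one of the floors. Part of the 261 was therefore fixed by the settings. Of the 17 lost calls 11 had a ratio under 2-fold; the other 6 kept a ratio past it but were no longer measured, 5 with the 75th percentile filter and Sema3g (1.57) without centring. Among genes past 2-fold 0 turned direction. Among those within it 5 changed sign: Sema4c without centring (-0.07), Nrp with each chromosome centred (0.25), and Efna3 (0.32), Plxna2 (-0.25) and Sema6c (0.45) with the median over probe sets. The number of higher members (6) ranged from 1 to 9. It was 9 of 53 without a filter, beside 4.25% of all genes. With the floor at the 60th percentile it was 2 of 31, where 4.52% of all genes were higher and 6.23% lower. With a 75th percentile filter, which by construction leaves only 15 members, it was 1, beside 4.48% higher and 6.05% lower. The lower members stayed at 4 in the latter 2 settings. With the median over probe sets the lower members fell from 4 to 2 of 31, beside 6.82% of all genes, and 4 were higher, beside 4.53%. The members' median (-0.13) was -0.36 without centring, where that of all genes was -0.23, -0.31 with the 75th percentile filter, and 0.00 without a filter, where 53 members counted. Over all genes the counts were 618 higher and 860 lower as reported, and 332 and 448 with the 75th percentile filter. Signal over background limits Sema3d, Sema3g, Sema4a and Plxnb3, which fell within 2-fold with the floor at the 60th percentile; Sema4d kept 1.65 there.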
